A study of Gallus gallus with 10 samples.

Results

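The p53 target and growth arrest genes described here are 10 named genes of 24355 in the expression table: CDKN1A, MDM2, CCNG1, GADD45A, GADD45B, GADD45G, BTG2, SESN1, TNFRSF10B and TP53INP1. They were taken by their common name, and each name stood on 1 row. Expression was measured by RNA sequencing in the choroid, the pigmented vascular layer behind the retina, taken from normal eyes of chicks (strain Domesticus) at day 15 after hatching. In the treated group 5 choroids were kept with PAPA-NONOate, a compound that releases nitric oxide as it decays, at 1.5 mM for 24 hours (37 °C, 5% CO2). The control group held 5 choroids labelled as without PAPA-NONOate, for which the labels repeat the incubation text of the treated group. Both groups carry the replicate numbers 2, 3, 4, 5 and 8, and every treated sample is also marked R and every control L. The labels do not say what the letters mark, which cannot be told apart from the treatment, or whether each replicate came from another animal, and the p-values rest on the spread among these libraries alone, which may be technical.

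The transcription factor p53 is held at a low level by MDM2, a ubiquitin ligase, and accumulates when DNA damage or other stress blocks that ligase. It then switches on genes that stop the cell cycle, assist repair or lead to cell death, and MDM2 itself is among these genes, which closes a feedback loop. Several of the 10 genes also answer to other signals: the GADD45 genes and BTG2 are induced by growth factors, cytokines and stress kinases without p53. Nitric oxide at high doses can damage DNA and inhibit ribonucleotide reductase, and induction of p53 and of CDKN1A by nitric oxide donors has been described in cultured mammalian cells.

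The deposited values are FPKM, fragments per length of transcript and size of the library, which allow levels of different genes to be compared. The tests covered 11357 genes that reached 1 FPKM in 5 or more libraries, all 10 members among them. The number of fragments per library is unknown; from the steps of FPKM values below 0.15, the libraries had 66.4 to 100% of the depth of the deepest, with treated libraries at 67.4 to 90.8%. Summed FPKM ran from 394921 to 535194 in the treated libraries and from 470676 to 605493 in controls, lowest in PAPA-NONOate replicate 2 (exact two-sided permutation p = 0.143 between the groups). The number of genes at 1 FPKM or more separated the groups, with 10973 to 11184 in treated libraries and 11318 to 11514 in controls (exact two-sided permutation p = 0.00794, the smallest possible), and its part in the results was not tested. PAPA-NONOate replicate 2 also lay farthest out along the leading principal component, which held 44.6% of the variance, while PAPA-NONOate replicate 5 lay beside control replicate 5. The log2 fold change of PAPA-NONOate over control had a median of -0.18 over all tested genes.

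The tissue was checked against marker genes, whose calls are to be read against 1.93% of all tested genes called higher and 7.41% called lower at an adjusted p of 0.05 in limma. Summed FPKM of 7 endothelial markers ran from 453 to 814.6 over all libraries, and that of 5 photoreceptor markers reached at most 0.593, with 2 of the 5 at 0 in every library. The 6 markers of the retinal pigment epithelium summed to at most 4.66 FPKM. The 1 of them tested, LRAT, was lower, at 0.552 to 1.08 FPKM in treated libraries and 1.11 to 2.89 FPKM in controls (adjusted p = 0.0224). All controls but not all treated libraries reached 1 FPKM for LRAT, so it was tested because it was high in controls. The 7 markers of melanocytes summed to 9.62 to 184.8 FPKM in treated libraries and 18.6 to 458.6 FPKM in controls, with 0 calls of 6 tested. Of 8 tested macrophage markers 3 were lower with PAPA-NONOate and 0 higher. The summed level of the 9 found was 180 to 490.1 against 504.5 to 878. Of 8 fibroblast markers 3 were lower and 0 higher, with sums of 423 to 1211 against 1109 to 2048. All 3 tested genes of the lymphocyte list were lower: CD3D, CD3E and PTPRC, the last a gene of leukocytes in general. Sums of the 7 found were 4.78 to 9.58 against 13.8 to 26.1. Red cell markers, at 1126 to 2122 against 475 to 2740, gave 0 calls of 4 tested, and neuron markers 0 of 4. Of 7 endothelial markers 1 was lower, of 4 thrombocyte markers 2 were lower, and of 6 smooth muscle and pericyte markers 1 was higher and 1 lower. CNN1, the smooth muscle marker called higher, was at 1.53 to 5.82 FPKM in treated libraries and 0.448 to 0.787 FPKM in controls. It was thus tested only because it was high in treated libraries. For CD3D, CD3E, TEK and ITGA2B, among those called lower, all controls but not all treated libraries reached 1 FPKM. In such bulk tissue fewer cells of a type and less RNA per cell cannot be told apart, and the part of these shifts in the results that follow was not tested.

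CDKN1A and CCNG1 rose with PAPA-NONOate, while MDM2 had a ratio of means of 0.979. The 10 genes gave 2 calls in limma at an adjusted p of 0.05, both higher, against 1.93% of all tested genes called higher and 7.41% called lower. In the same 2 genes every treated library lay above every control, which held for 1.84% of all tested genes. The median log2 fold change of the 10 genes was 0.24, against -0.18 for all tested genes, and 9 of the 10 lay above the latter. The members were chosen with earlier results of these data known, so these counts describe them and do not speak for the pathway as a whole.

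CDKN1A (ENSGALG00000028318) encodes p21, which binds and inhibits cyclin-dependent kinases and halts the cell cycle. With PAPA-NONOate it was at 151, 80.1, 102.7, 74.4 and 95.6 FPKM in replicates 2, 3, 4, 5 and 8. In controls it was at 68.8, 51.5, 63.9, 44.3 and 46.6 FPKM in the same order. The groups did not overlap, PAPA-NONOate replicate 2 stood far above the other treated libraries, and PAPA-NONOate replicate 5 came closest to the controls. The means were 100.8 ± 30.4 against 55.0 ± 10.8 FPKM (SD, n = 5), a 1.83-fold difference. The log2 fold change was 0.84 (SE 0.19, 95% interval 0.42 to 1.26, adjusted p = 0.0186 by limma), higher than that of 98.4% of all tested genes. Without PAPA-NONOate replicate 2 it was 0.68 (adjusted p = 0.0190). It missed the threshold without control replicate 8 (adjusted p = 0.0518).

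CCNG1 (ENSGALG00000001718), cyclin G1, is a p53 target that does not drive the cycle as classical cyclins do and brings a phosphatase to MDM2. It was at 241.8, 220.1, 261, 232 and 267 FPKM in the treated replicates 2, 3, 4, 5 and 8, and at 201, 175, 169, 138 and 182 FPKM in the controls. All treated libraries lay above all controls and close to each other, with PAPA-NONOate replicate 2 inside their range. Its log2 fold change was 0.50 (SE 0.13, 95% interval 0.23 to 0.78, adjusted p = 0.0261 by limma). The call depended on single libraries: leaving out treated replicate 4, treated replicate 8, control 3 or control 4 took the adjusted p past 0.05, at most to 0.0668.

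MDM2 (ENSGALG00000009942) was among the least expressed of the 10 genes and varied between libraries. It was at 13.7, 7.72, 8.57, 11.1 and 9.15 FPKM in the treated replicates 2, 3, 4, 5 and 8, and at 15.2, 10.6, 9.56, 9.48 and 6.58 FPKM in the controls. The ranges of both groups overlapped, and replicate 2 was the highest library in each. Its fitted log2 fold change was -0.01 with a 95% interval of -0.46 to 0.44 (adjusted p = 0.979), an interval that also spans the estimate for GADD45A. As deposited, the size of the MDM2 response is therefore known only within these bounds. After the median-ratio scaling described below the estimate was 0.17, with a 95% interval of -0.33 to 0.67.

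**Figure D1:**
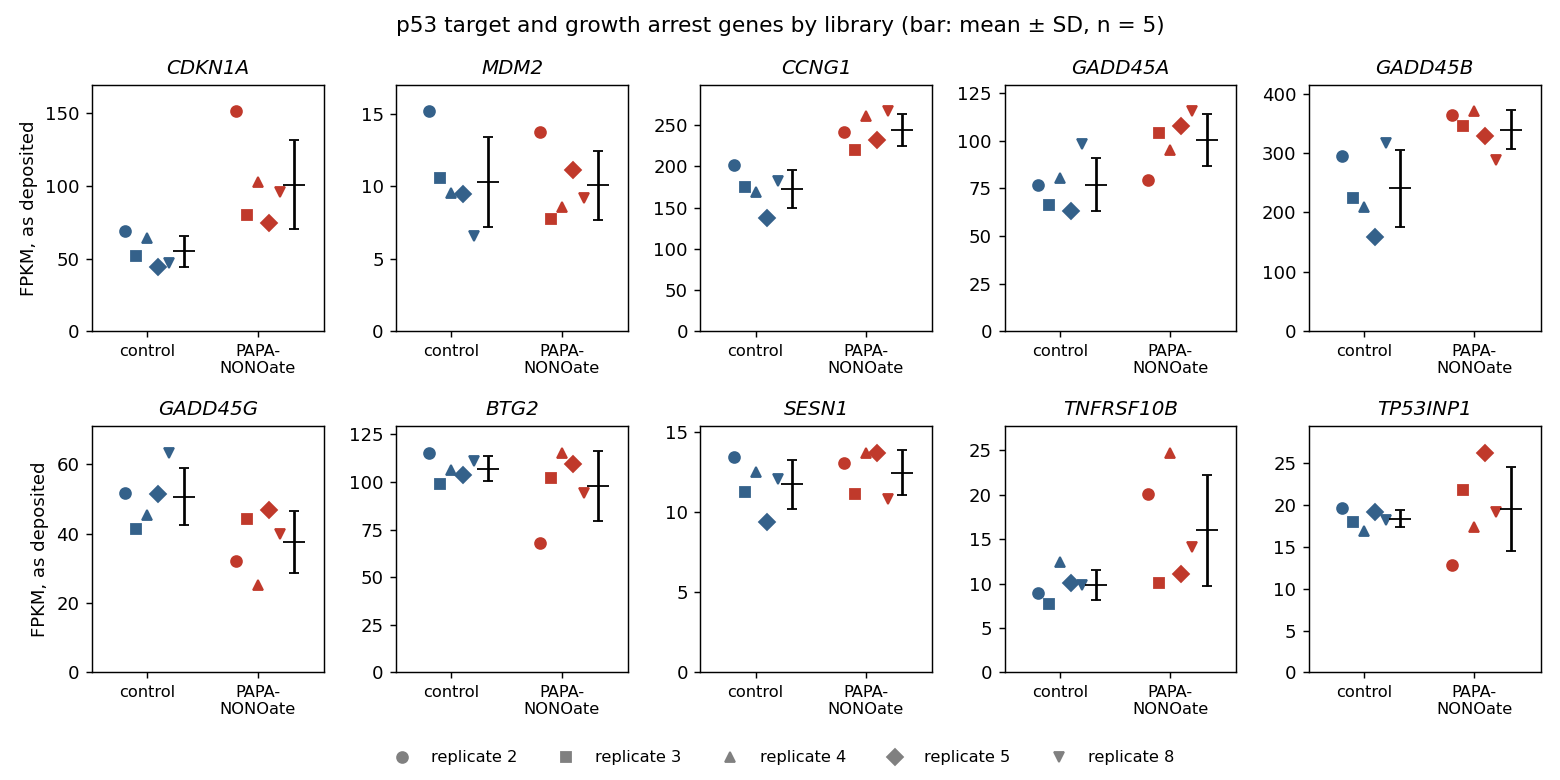
FPKM of each of the 10 genes (vertical axis, from 0) in the 5 control (blue) and 5 PAPA-NONOate (red) libraries, with a marker shape for each replicate number and bars for mean ± SD. The groups separate without overlap in CDKN1A (44.3 to 68.8 against 74.4 to 151 FPKM) and CCNG1 (138 to 201 against 220.1 to 267 FPKM), while GADD45G is the member with the largest fall in its mean, from 50.7 to 37.7 FPKM.

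The GADD45 genes encode small stress-inducible proteins that bind the kinase MAP3K4 and act on the p38 and JNK pathways, and they can bind PCNA and CDK1. GADD45B was the most abundant of the 10 genes in both groups. It was at 363.6, 345.2, 370.3, 329 and 287 FPKM in the treated replicates 2, 3, 4, 5 and 8, and at 295.7, 224, 209, 159 and 317 FPKM in the controls. Of the treated libraries 4 lay above all controls, and control replicate 5 was the lowest library. On the log2 scale the difference was 0.53 (SE 0.18, 95% interval 0.14 to 0.92), and it did not pass (adjusted p = 0.0810).

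GADD45A was at 79.5, 104, 95.1, 107 and 115 FPKM with PAPA-NONOate and at 76.6, 66.4, 80.6, 63.0 and 98.0 FPKM in controls, in replicates 2, 3, 4, 5 and 8. Of the treated libraries 3 were above all controls. As deposited, PAPA-NONOate replicate 2, the highest for CDKN1A, was the lowest treated library for GADD45A. This library had the smallest factor in the median-ratio scaling described below (0.760), and after that scaling it was no longer the lowest. The log2 fold change of GADD45A as deposited, 0.39, did not pass (SE 0.15, 95% interval 0.07 to 0.70, adjusted p = 0.110).

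GADD45G differed in direction from both. It was at 32.0, 44.2, 25.2, 47.0 and 39.9 FPKM with PAPA-NONOate and at 51.6, 41.5, 45.5, 51.4 and 63.4 FPKM in controls. The treated replicates 2, 4 and 8 lay below all controls and the other two among them. On the log2 scale its difference was -0.44 (SE 0.18, 95% interval -0.83 to -0.06) and did not pass (adjusted p = 0.124).

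Together the 3 genes summed to 477 ± 20.5 FPKM with PAPA-NONOate and 369 ± 81.6 FPKM in controls (SD, n = 5). GADD45B made up 71.0 ± 4.93% of that sum in treated libraries and 64.8 ± 4.61% in controls. GADD45A made up 21.1 ± 3.46% and 21.1 ± 2.42%. The share of GADD45G was 5.13 to 9.70% in treated libraries and 12.2 to 18.8% in controls, without overlap. How often such shares of other genes would separate the groups was not computed.

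TNFRSF10B encodes a death receptor for TRAIL, which triggers apoptosis, and in the chicken it is also the receptor TVB through which some avian leukosis viruses enter cells. It was at 20.1, 10.02, 24.8, 11.1 and 14.2 FPKM in the treated replicates 2, 3, 4, 5 and 8, and at 8.98, 7.76, 12.4, 10.1 and 9.88 FPKM in controls. Treated replicates 2 and 4 were highest, and treated replicates 3 and 5 lay within the control range. Its log2 fold change of 0.61, next in size to that of CDKN1A, did not pass (SE 0.23, 95% interval 0.12 to 1.11, adjusted p = 0.105).

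BTG2 recruits the CCR4-NOT deadenylase to messenger RNAs and restrains proliferation. It was at 68.0, 102, 115, 109.7 and 94.4 FPKM with PAPA-NONOate and at 115, 98.9, 106, 104 and 111 FPKM in controls. The controls lay close together, and PAPA-NONOate replicate 2 was, as deposited, far below all other libraries. Its difference on the log2 scale was -0.15 (95% interval -0.46 to 0.16, adjusted p = 0.516).

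SESN1, sestrin 1, binds the GATOR2 complex and lowers mTORC1 signalling. Its range was 10.8 to 13.7 FPKM with PAPA-NONOate and 9.39 to 13.4 FPKM in controls, with a log2 fold change of 0.09 (95% interval -0.19 to 0.37, adjusted p = 0.690). TP53INP1, a p53-inducible protein with roles in apoptosis and autophagy, was at 12.9, 21.8, 17.3, 26.2 and 19.1 FPKM in the treated replicates 2, 3, 4, 5 and 8. In controls it ran only from 16.9 to 19.6 FPKM. As deposited, treated libraries thus lay on both sides of the controls, with only PAPA-NONOate replicate 2 below them. The log2 fold change was 0.05 (95% interval -0.31 to 0.40, adjusted p = 0.876 by limma).

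Since the median gene was lower with PAPA-NONOate, the libraries were also brought to a common median ratio. The members then gave 4 calls higher and 0 lower, against 7.06% and 6.44% of all tested genes. GADD45A passed with a log2 fold change of 0.57 (95% interval 0.36 to 0.79, adjusted p = 0.00430). GADD45B passed with 0.72 (95% interval 0.35 to 1.08, adjusted p = 0.0171). CDKN1A stood at 1.03 (adjusted p = 0.0161) and CCNG1 at 0.69 (adjusted p = 0.00263). After this scaling all treated libraries lay above all controls in these 4 genes, as in 6.88% of all tested genes, for GADD45A with 98.2 to 119 against 65.0 to 87.8 scaled FPKM. TNFRSF10B (0.79, adjusted p = 0.0691) and GADD45G (-0.26, adjusted p = 0.298) still did not pass. The estimates for MDM2 and BTG2 turned from below to above 0 with the scaling, to 0.17 and 0.04. PAPA-NONOate replicate 2 had the smallest scaling factor, 0.760, where the other libraries had 0.938 to 1.17. Without this library the scaled estimates were 0.80 for CDKN1A (adjusted p = 0.00743 by limma) and 0.62 for CCNG1 (adjusted p = 0.00378 by limma). Scaled TP53INP1 ran from 16.9 to 24.3 in treated libraries and from 15.7 to 19.9 in controls. No treated library then lay below the controls for this gene. Scaled BTG2 ran from 89.5 to 119 in treated libraries and from 96.9 to 108 in controls. Which scaling is nearer to the amount of RNA per cell was not tested.

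**Figure D2:**
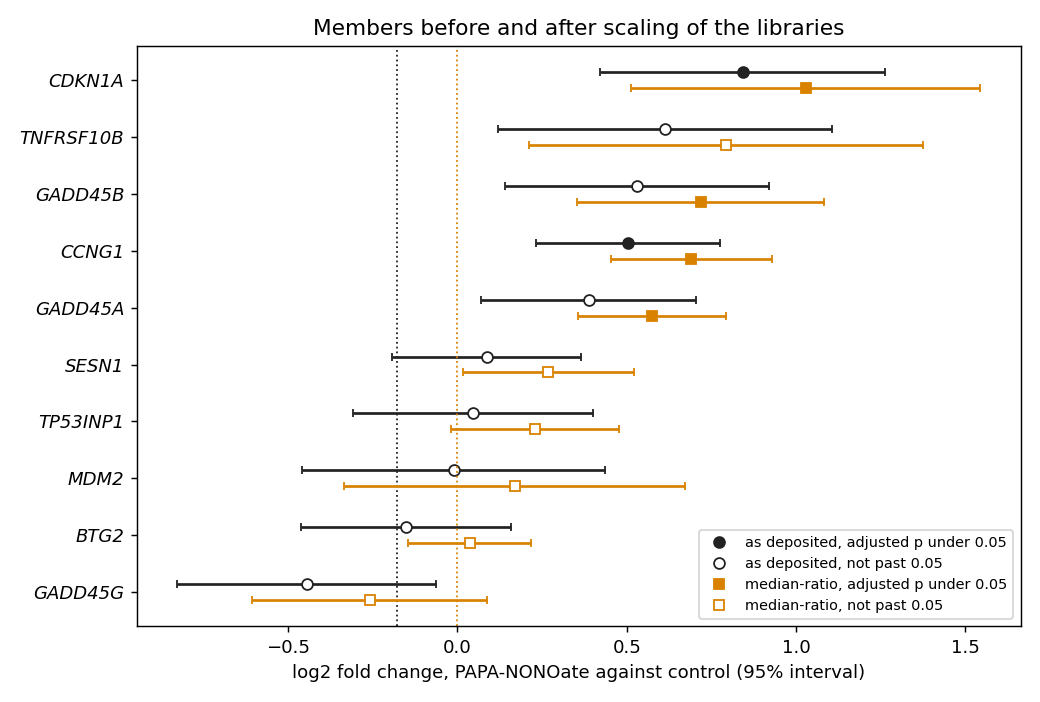
Log2 fold change of each gene (horizontal axis) with its 95% interval, as deposited (black circles) and after median-ratio scaling (orange squares), with filled symbols for an adjusted p under 0.05. Dotted lines mark the median of all tested genes, at -0.18 as deposited, and the filled symbols are CDKN1A and CCNG1 as deposited, joined by GADD45A and GADD45B after scaling.

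Ratios between members within a library do not depend on a scaling by a common factor for each library, apart from the pseudocount. Quantile normalization is not such a scaling, and the ratios were not tested under it. In all, 12 pairs were compared by exact two-sided permutation tests over the 10 libraries, whose smallest possible p is 0.00794, with Benjamini-Hochberg adjustment over the 12. CDKN1A rose relative to MDM2, by 0.85 on the log2 scale (95% interval 0.41 to 1.30, exact p = 0.0159, adjusted p = 0.0317). The log2 ratio was 3.42, 3.29, 3.51, 2.69 and 3.32 with PAPA-NONOate and 2.14, 2.23, 2.68, 2.17 and 2.73 in controls. Only PAPA-NONOate replicate 5 fell inside the control range. CDKN1A also rose relative to SESN1 (0.76), BTG2 (0.99) and GADD45G (1.29), with higher ratios in all 5 treated libraries than in any control. Each of these 3 had an exact permutation p of 0.00794 and an adjusted p of 0.0190. The pairs with CDKN1A share that gene, which by itself separated the groups, so they are not separate results. How many of all tested genes would separate the groups in a ratio with CDKN1A was not computed.

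CDKN1A was not shown to differ in its response from CCNG1, GADD45A, GADD45B, TNFRSF10B or TP53INP1. The differences were 0.34 (95% interval -0.10 to 0.78) for CCNG1, 0.45 (-0.24 to 1.15) for GADD45A and 0.31 (-0.25 to 0.88) for GADD45B. They were 0.23 (-0.28 to 0.74) for TNFRSF10B and 0.80 (-0.05 to 1.64) for TP53INP1, with adjusted exact permutation p-values of 0.0952 to 0.372 over the 5. These intervals leave room for differences of the size seen for MDM2 in 3 of the 5 pairs, those with GADD45A, GADD45B and TP53INP1.

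Within the GADD45 family the ratio to GADD45G rose for both other members. It rose by 0.83 on the log2 scale for GADD45A (95% interval 0.47 to 1.19) and by 0.98 for GADD45B (95% interval 0.37 to 1.58). In both pairs all 5 treated libraries lay above all controls (exact permutation p = 0.00794, adjusted p = 0.0190). Both pairs hold GADD45G, whose own fall did not pass, and so does its share of the summed FPKM. These are therefore not separate results. How many of all gene pairs would separate the groups was not computed. For GADD45B over GADD45G the log2 ratios were 3.49, 2.95, 3.85, 2.80 and 2.83 against 2.51, 2.42, 2.19, 1.62 and 2.31. The ratio of GADD45A to GADD45B moved by -0.14 (95% interval -0.58 to 0.29, exact permutation p = 0.484). With any 1 library left out, each of the 6 pairs called among the 12 passed, with adjusted exact permutation p-values of up to 0.0476. Except for CDKN1A over MDM2, these pairs did not overlap between the groups and cannot come to overlap when a library is left out. For them passing was thus nearly fixed in advance. CDKN1A over TP53INP1 passed in 1 of these 10 repeats, without PAPA-NONOate replicate 5 (adjusted exact permutation p = 0.0272).

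**Figure D3:**
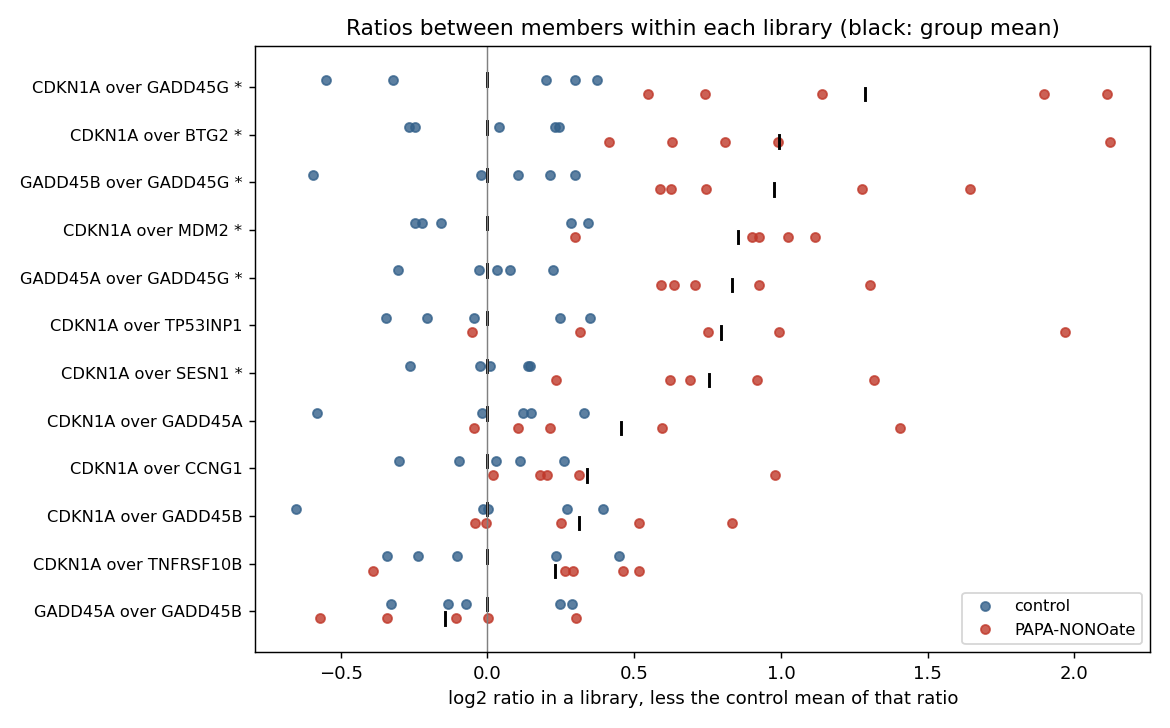
Log2 ratio of the FPKM of 2 members within a library, less the mean of that ratio in controls (horizontal axis), for 12 pairs in 5 control (blue) and 5 PAPA-NONOate (red) libraries, with black marks for group means and an asterisk for an adjusted exact permutation p under 0.05. The treated libraries lie to the right of all controls for CDKN1A over GADD45G, BTG2 and SESN1 and for GADD45A and GADD45B over GADD45G, and GADD45A over GADD45B shows the groups mixed.

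Levels of the 10 genes spanned a wide range. By mean FPKM over all libraries GADD45B ranked 197 among all genes of the table and CCNG1 289, while MDM2 ranked 6003. In controls the order was GADD45B, CCNG1, BTG2, GADD45A, CDKN1A, GADD45G, TP53INP1, SESN1, MDM2 and TNFRSF10B. With PAPA-NONOate GADD45B and CCNG1 were followed by CDKN1A, at 100.8 FPKM, next to GADD45A (100.3) and BTG2 (97.8), and these 3 overlapped. In controls BTG2, at 107 ± 6.39 FPKM (SD, n = 5), had stood clear of GADD45A below it and of CCNG1 above it. The order among CDKN1A, GADD45A and BTG2 in treated choroids, and among SESN1, MDM2 and TNFRSF10B in controls, did not hold from library to library. Other neighbours also changed places: CDKN1A was below GADD45G in control replicates 5 and 8, and TNFRSF10B above TP53INP1 in treated replicates 2 and 4.

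Among libraries of a group the deposited values of the members did not all move together. Deviations from the group means were compared over the 10 libraries, as a description, since libraries share their scaling and composition. Of 45 pairs of members, 9 had a Pearson r above 0.5 and 6 below -0.5. The share of all gene pairs past these cuts was not computed. Deviations of CDKN1A went with those of MDM2 (0.63) and TNFRSF10B (0.59) and against those of TP53INP1 (-0.80), BTG2 (-0.57) and GADD45G (-0.55). GADD45B went with SESN1 (0.72) and CCNG1 (0.69), and BTG2 with TP53INP1 (0.74).

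Single libraries differed in which members stood high. In PAPA-NONOate replicate 2 CDKN1A lay 0.63 above its group mean on the log2 scale and MDM2 0.46 above, while TP53INP1 was at -0.54 and BTG2 at -0.50. These deviations were taken without scaling, and this library had the smallest median-ratio factor. In PAPA-NONOate replicate 4 TNFRSF10B was at 0.69 and GADD45G at -0.54. PAPA-NONOate replicate 5 had signs opposite to those of replicate 2 for CDKN1A (-0.39) and TP53INP1 (0.46). Of the other 9346 tested genes with a common name, those most like CDKN1A by this measure were SLC49A3 (r = 0.92), TXNRD1 (0.91), NECAB2 (0.91) and PLEKHF1 (0.91). They are the highest of 9346 values over 10 libraries, with no test, and each of these genes was highest in PAPA-NONOate replicate 2. Between the groups NECAB2 passed (adjusted p = 0.0487 by limma), while SLC49A3 (0.809) and PLEKHF1 (0.264) did not. TXNRD1, thioredoxin reductase, was at 76.0 FPKM in PAPA-NONOate replicate 2 and at 29.9 to 50.3 FPKM in the other treated libraries. It was at 14.6 to 30.6 FPKM in controls, highest in control replicate 2, and its log2 fold change was 1.27 (adjusted p = 0.00823).

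**Figure D4:**
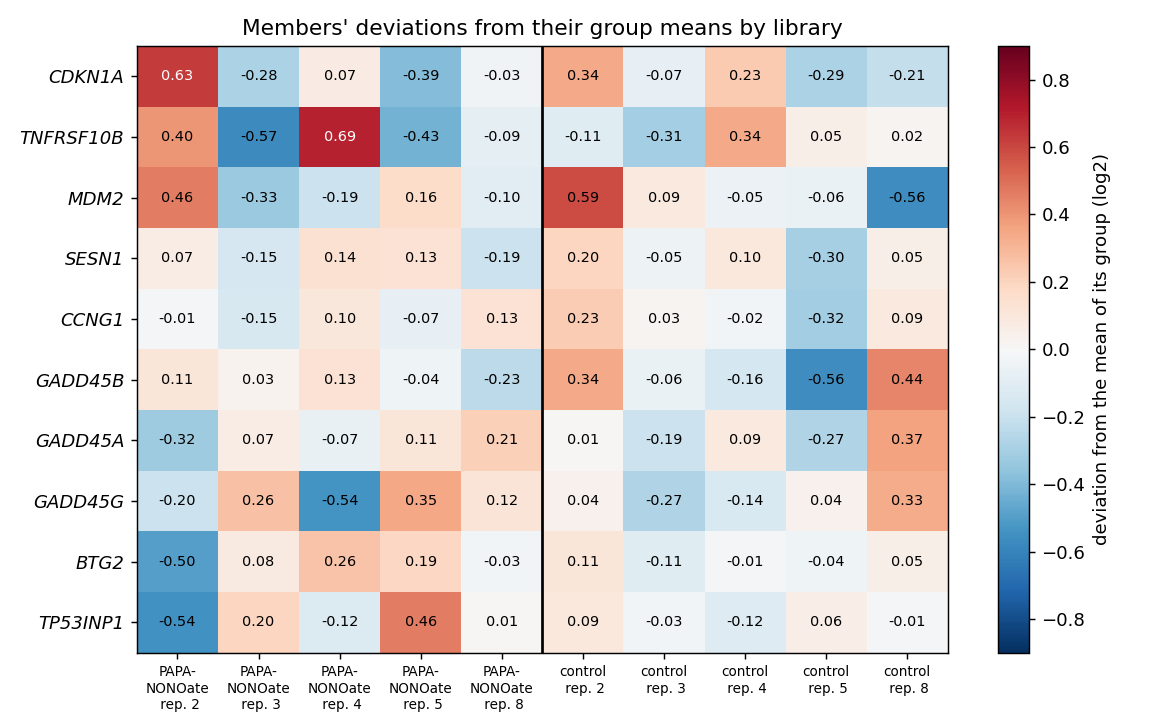
Deviation of each gene from the mean of its own group on the log2(FPKM + 0.5) scale, as deposited without scaling (colour and printed value), in each library (columns, treated on the left). In PAPA-NONOate replicate 2 CDKN1A, MDM2 and TNFRSF10B are high (0.63, 0.46 and 0.40) where TP53INP1, BTG2 and GADD45A are low (-0.54, -0.50 and -0.32).

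Most other genes of the p53 pathway did not pass. Of 29 regulators and further targets of p53, 21 were found by name and 18 tested: 1 was called higher, 0 lower and 17 did not pass, where 1.93% of all tested genes were called higher and 7.41% lower. Their median log2 fold change was 0.05, against -0.18 for all tested genes. The 1 that rose was PMAIP1, which encodes the BH3-only protein NOXA, a trigger of mitochondrial apoptosis. It was at 14.9, 7.67, 7.85, 11.02 and 5.08 FPKM with PAPA-NONOate and at 5.83, 4.25, 3.55, 4.71 and 1.73 FPKM in controls. Treated replicate 8 lay within the control range. The log2 fold change was 1.11 (SE 0.30, adjusted p = 0.0361), and the call was lost when any of 7 libraries was left out (treated 2, 3 and 4, control 3, 4, 5 and 8), with an adjusted p of at most 0.0756. It was also lost without the filter on low values (adjusted p = 0.0850). After median-ratio scaling 3 of the 18 genes were called higher and 0 lower, against 7.06% and 6.44% of all tested genes. MDM4, the partner of MDM2 in restraining p53, differed by 0.08 on the log2 scale (adjusted p = 0.829). PPM1D, a phosphatase that switches the p53 response off, differed by 0.16 (adjusted p = 0.490) and passed after median-ratio scaling, at 0.34 (adjusted p = 0.0165).

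Among other growth arrest genes, 0 of 11 tested were called higher and 2 lower, where 7.41% of all tested genes were lower. The 2 were GAS2 (log2 fold change -0.83, adjusted p = 0.0369) and RBL1, the retinoblastoma-like protein p107 (-0.59, adjusted p = 0.0464). GAS2 lost its call in 6 and RBL1 in 9 of the 10 fits with 1 library left out, with an adjusted p of up to 0.119, and both lost it without the filter on low values. CDKN1B, which encodes the related inhibitor p27, had means of 91.2 ± 12.4 and 96.5 ± 10.3 FPKM (SD, n = 5). Its difference on the log2 scale was -0.09 (95% interval -0.36 to 0.19, adjusted p = 0.693), above 0 after median-ratio scaling.

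The kinases and mediators that report DNA damage, and the kinases that p21 inhibits, were lower or did not pass. In the list of damage sensors and mediators, which also holds the cell cycle kinase WEE1, 13 genes were tested. Of these 4 were lower and 0 higher, against 7.41% of all tested genes called lower. The median log2 fold change of the 13 was -0.51, against -0.18 for all tested genes. The 4 were CHEK1, the checkpoint kinase (-1.68, adjusted p = 0.00204), BRCA1 (-1.79), WEE1 (-0.93) and TOPBP1 (-0.82), with every treated library below every control, as in 7.48% of all tested genes. The 9 that did not pass ran from -0.61 for ATR to 0.17 for NBN. Of 12 cyclins, cyclin-dependent kinases and PCNA 4 were lower and 0 higher: CDK1, CCNE2 (-1.29), CDK2 (-0.998) and CCNA2 (-0.84). BRCA1 and CCNE2 reached 1 FPKM in 5 libraries only through the controls, so that they were tested because they were high there. CCNA2 lost its call without control replicate 2, 3 or 8 (adjusted p up to 0.0580) and under quantile normalization (0.0811). CDK1, the mitotic kinase, was at 2.30, 3.98, 5.21, 6.91 and 2.74 FPKM in the treated replicates 2, 3, 4, 5 and 8, and at 22.6, 36.4, 31.7, 12.5 and 37.6 FPKM in controls. The groups lay far apart, and PAPA-NONOate replicate 5 and control replicate 5 came closest. The difference was -2.59 on the log2 scale (SE 0.32, adjusted p = 0.000700). The 8 of these 12 genes that did not pass ran from -0.48 for CCND3 to 0.21 for CCND1. For CCND1 every treated library lay above every control, narrowly, at 22.49 to 28.1 against 19.4 to 22.47 FPKM. Such separation held for 1.84% of all tested genes.

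None of the tested partners of the members passed as deposited, where 1.93% of all tested genes were called higher and 7.41% lower. This held for 5 kinases that act with the GADD45 proteins, 8 subunits and partners of the deadenylase that BTG2 recruits, 8 partners of the sestrins and 6 of the death receptor. Their median log2 fold changes were 0.14, -0.13, -0.26 and -0.03, against -0.18 for all tested genes. After median-ratio scaling 2 of the 5 kinases were called higher and 1 of the 8 sestrin partners lower, against 7.06% and 6.44% of all tested genes. MAP3K4 was at 5.56 ± 0.381 against 4.67 ± 0.801 FPKM and TNFSF10, the gene of the ligand TRAIL, at 45.0 ± 4.73 against 49.7 ± 2.38 FPKM, both given as mean ± SD over 5 libraries a group.

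**Figure D5:**
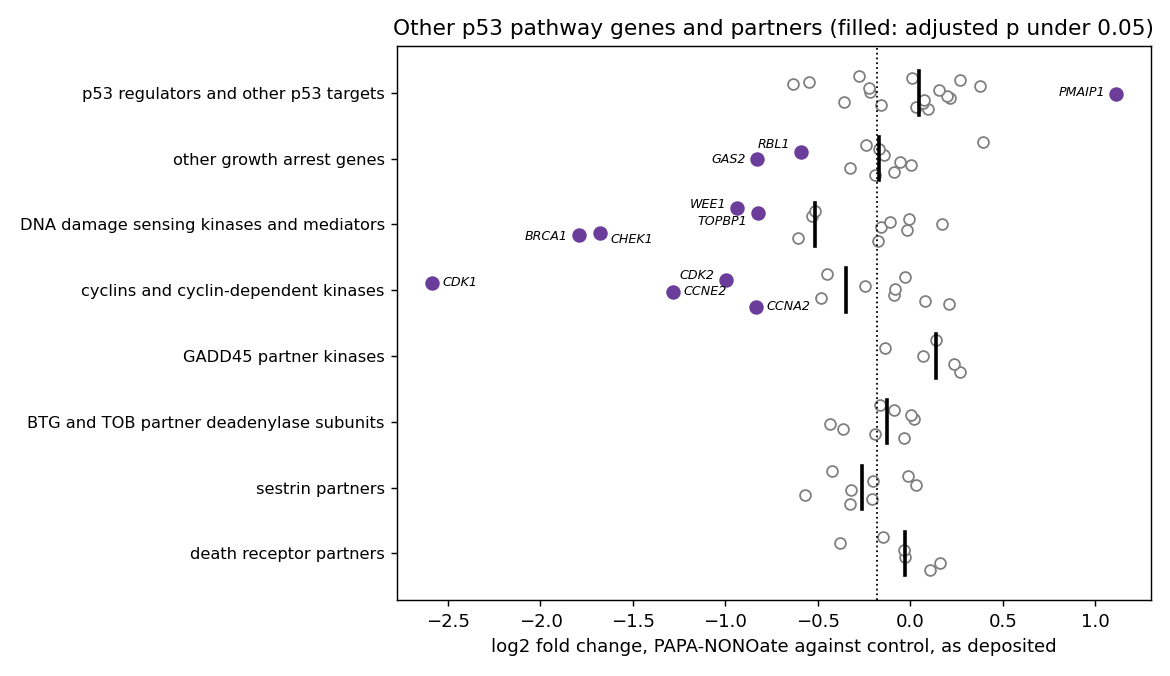
Log2 fold change of each tested gene (points, horizontal axis) in 8 lists of p53 pathway genes and partners, filled and named where the adjusted p is under 0.05, with a black bar for the median of the list and a dotted line for the median of all tested genes (-0.18). PMAIP1 is the 1 gene called higher, at 1.11, and 10 genes of the growth arrest, damage and cyclin lists are called lower, down to -2.59 for CDK1.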

How the data were processed

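The libraries were made from poly(A)-selected RNA with a strand-specific kit, per the labels' protocols. The deposited values are FPKM per gene and library, made with Cufflinks and SAMtools on GRCg6a, per the submitters' processing notes; for the versions, the aligner and the annotation the sources used here give nothing. The value 999999999 (14 values of 10 genes) was treated as missing, and these genes were not tested. FPKM carry no counts, so no counting intervals are given; relative depth came from the most frequent ratio between 2 libraries over genes below 0.15 FPKM, and pairs of libraries gave the same ratio within 0.13 on the log2 scale. Genes with at least 1 FPKM in at least 5 libraries were tested by limma 3.58.1 (R 4.3.3) on log2(FPKM + 0.5) with a mean-variance trend. Benjamini-Hochberg adjustment ran over all 11357 genes, with a threshold of 0.05. Log2 fold changes are on this scale, which understates changes of weakly expressed genes. The test was tried on simulated data drawn without differences in scale between libraries, so this trial cannot speak to the scaling. Intervals of ratios use the t distribution with 8 degrees of freedom.

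The members and lists were chosen with earlier results of these data known. All members were named, and from each list up to 4 called genes by smallest adjusted p, plus MDM4, PPM1D, CDKN1B and CDK1. Another gene of the rule is not reported here. LRAT, CNN1, CD3D, CD3E, PTPRC, TEK, ITGA2B, ATR, NBN, CCND3, CCND1, MAP3K4 and TNFSF10 were named after their values were seen. Of 107 list symbols 89 were found and 81 tested. Promoter and protein sequences were not used here. Alternatives were other pseudocounts (0.1 and 1), no filter or one at 5 FPKM, scaling by median ratios or by quantiles, weights for each library, a block for the replicate number (alone and with median-ratio scaling) and leaving out single libraries. Quantile normalization with the block, and median-ratio scaling without PAPA-NONOate replicate 2, were added after the data were seen. Figures were drawn with matplotlib 3.10.9.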

Additional observations from a re-analysis of the deposited data

How the results depend on the processing

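Both CDKN1A and CCNG1 stayed higher under other pseudocounts and filters. The count of members called higher was 4 under median-ratio scaling, quantile normalization and library weights, and 4 under median-ratio scaling without PAPA-NONOate replicate 2; these were CDKN1A, CCNG1, GADD45A and GADD45B each time. With 1 library left out it was 1 to 2. It was 1 without treated replicates 4 or 8 and without controls 3, 4 or 8. No member was called lower under any setting, and no named value reversed a call.

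Over all tested genes 801 (7.06%) were called higher under median-ratio scaling, 733 (6.45%) under quantile normalization and 383 (3.37%) with library weights. As reported the count was 219 (1.93%), and with median-ratio scaling without PAPA-NONOate replicate 2 it was 684 (6.08%). Called lower were 1424 (12.5%) with library weights, against 842 (7.41%) as reported. With a filter at 5 FPKM 449 were called lower, 5.55% of the 8094 genes then tested. With 1 library left out 152 to 242 (1.35 to 2.15%) were higher and 339 to 1579 (3.03 to 14%) lower. The extremes of the latter came without control replicate 2 and without PAPA-NONOate replicate 5. The causes were not tested.

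The main tests did not take the replicate numbers to pair the samples, and the labels do not say whether they do. Deviations of same-numbered libraries correlated at 0.00, 0.29, 0.30, -0.02 and 0.19. Of the 5 treated libraries 3 correlated best with the control of their own number. These values do not settle whether the samples are paired. With the replicate number as a block 1 member was called higher, CDKN1A, where 1.88% of all tested genes were called higher and 5.99% lower. In that limma fit CCNG1 missed the threshold (adjusted p = 0.0536), as did GAS2 (0.0628) and RBL1 (0.0910). With the block and median-ratio scaling 4 members and 941 genes (8.29% of those tested) were called higher. With the block and quantile normalization 4 members and 835 genes (7.35%) were called higher. For the 12 ratios, sign flips within numbers cannot give a p below 0.0625. Without counts, the precision of the less expressed members such as MDM2 is not known beyond the spread of libraries.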
